A study of Mus musculus with 16 samples.

Results

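The genes described here are 7 members of the replication licensing system, Cdt1, Gmnn, Dtl, Kmt5a, Cdc6, Orc1 and Orc6, found by symbol in the count tables of 3 experiments on Cul4b knockout in the mouse small intestine. They are 7 of the 52525 genes that all 3 tables list. Every member passed the low-count filter in every experiment, so that none was lost. RNA-seq was done on 4 WT and 4 KO-IEC crypt libraries, on 2 WT and 2 KO-IEC organoid libraries, and on 2 WT and 2 KO-CAG organoid libraries, all from C57BL/6 mice. In the KO-IEC animals (pVillin-Cre; Cul4b fn/Y) a Villin promoter drives Cre in the intestinal epithelium, and their WT (Cul4b fn/Y) carries the floxed allele without Cre. The KO-CAG organoids came from CAG-CreERT2; Cul4b fn/Y mice, in which Cre is expressed from a ubiquitous promoter and acts after tamoxifen, and were sequenced after tamoxifen treatment. Whether the WT organoids of that experiment carried CreERT2 or received the drug is not given in the sources used here. Cul4b lies on the X chromosome, and the Y in the genotypes marks males with a single copy. The study's methods state that young adult mice served for most experiments, but the age of the sequenced mice in particular and the medium of the sequenced organoids are not given in the sources used here. The study's methods call the replicates of each group biological and count mice in the crypt comparison. Whether the organoid replicates came from separate animals is not given, so p-values there measure the spread between these cultures.

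CRL4 is a ubiquitin ligase built on a cullin 4 scaffold, either CUL4A or CUL4B, with DDB1 as adaptor and RBX1 as the RING subunit. With CDT2, the protein of Dtl, as substrate receptor it recognises proteins that are bound to PCNA on chromatin, and it destroys CDT1 and the H4K20 methyltransferase SET8, the protein of Kmt5a, during S phase. The origin recognition complex, of which ORC1 and ORC6 are subunits, CDC6 and CDT1 load the MCM2-7 helicase onto origins in G1, and geminin, the protein of Gmnn, binds CDT1 and keeps origins from being licensed again. This control acts largely on protein stability, whereas only transcripts were counted here. In the intestine the dividing cells are the stem cells and transit-amplifying cells of the crypt.

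The promoter windows that hold an E2F-like match are shown, since E2F factors are known to drive many genes of the G1/S switch. They were picked by that match and not by the comparisons. The window of Orc6 held no match and is not shown. RefSeq windows on GRCm38.p6, of 250 bases before and 50 after a gene's start, matched 6 of the 7 members by symbol, in 8 windows. Gmnn had none. An E2F-like site was searched in 4 spellings on both strands, TTTCCCGC, TTTCGCGC, TTTGCCGC and TTTGGCGC. A match stood in the windows of Cdt1, Dtl, Cdc6 and Orc1, and in 2.26% of all 32851 windows, or in 704 of 27025 genes (2.60%). The windows below run 5′ to 3′ on the strand of the gene, with the match in capitals. That of Cdt1 is chr8:122567765-122568064 on the plus strand, that of Dtl chr1:191575495-191575794 on the minus strand, that of Cdc6 chr11:98907901-98908200 on the plus strand and that of Orc1 chr4:108579204-108579503 on the plus strand. The first of the 3 Kmt5a windows, chr5:124439680-124439979 on the plus strand, is given for contrast and holds no such letters.
Cdt1: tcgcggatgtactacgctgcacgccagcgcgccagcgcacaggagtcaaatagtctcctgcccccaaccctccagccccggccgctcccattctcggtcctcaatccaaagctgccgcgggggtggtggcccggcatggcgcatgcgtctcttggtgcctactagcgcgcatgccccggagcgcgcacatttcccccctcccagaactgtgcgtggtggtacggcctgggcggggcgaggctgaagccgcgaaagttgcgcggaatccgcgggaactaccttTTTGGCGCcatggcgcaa
Dtl: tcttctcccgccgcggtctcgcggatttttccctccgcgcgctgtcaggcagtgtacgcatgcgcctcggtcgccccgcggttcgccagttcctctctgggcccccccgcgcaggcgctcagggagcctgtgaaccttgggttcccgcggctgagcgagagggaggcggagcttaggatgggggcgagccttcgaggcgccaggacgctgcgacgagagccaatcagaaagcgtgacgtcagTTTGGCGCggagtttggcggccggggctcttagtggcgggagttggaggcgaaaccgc
Cdc6: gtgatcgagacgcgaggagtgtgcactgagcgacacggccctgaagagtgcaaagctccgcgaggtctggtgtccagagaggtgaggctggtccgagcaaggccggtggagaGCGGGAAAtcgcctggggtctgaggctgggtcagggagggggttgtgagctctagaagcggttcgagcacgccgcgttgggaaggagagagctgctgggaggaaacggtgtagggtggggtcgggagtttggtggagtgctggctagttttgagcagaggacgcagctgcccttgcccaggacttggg
Orc1: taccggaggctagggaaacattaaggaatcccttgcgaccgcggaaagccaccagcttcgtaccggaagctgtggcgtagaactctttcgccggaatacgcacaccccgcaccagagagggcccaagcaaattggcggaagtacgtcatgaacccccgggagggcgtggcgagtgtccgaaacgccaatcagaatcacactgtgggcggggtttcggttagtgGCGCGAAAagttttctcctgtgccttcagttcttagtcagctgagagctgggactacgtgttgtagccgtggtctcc
Kmt5a: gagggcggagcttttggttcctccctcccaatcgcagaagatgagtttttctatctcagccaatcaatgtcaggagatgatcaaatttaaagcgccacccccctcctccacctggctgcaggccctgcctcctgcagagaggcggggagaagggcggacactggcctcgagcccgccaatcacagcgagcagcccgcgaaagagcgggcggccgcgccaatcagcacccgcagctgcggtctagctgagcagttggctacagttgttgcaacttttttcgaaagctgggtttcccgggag
The match began 8 bases before the RefSeq start in Dtl, 27 before it in Orc1 and 138 before it in Cdc6, whereas in Cdt1 it began at base 33 of the transcript. Restricted to the 200 bases before the start, 3 of the 6 members held a match, and 1.58% of all windows. CCAAT, the core of the site of NF-Y, was found on either strand in 4 of the 6 members (Dtl, Kmt5a, Orc1 and Orc6) and in 37.4% of all windows. A cell cycle homology region-like hexamer, TTTGAA or TTCGAA, was found only in Kmt5a among the 6, at base 27 of the transcript, and in 19.2% of all windows. Such matches are descriptions of the letters and not evidence of binding. The positions of all 7 members in the tables are equal to those of GENCODE M21 on GRCm38. There Cdc6 starts at 98907801, ahead of its whole window, and Orc1 at 108579423, ahead of its match. Both matches therefore lie inside the genes as annotated there.

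Total counts ran from 9311734 to 13479974 in the crypt libraries, from 15006730 to 16881395 in the KO-IEC experiment and from 7348191 to 10462275 in the KO-CAG experiment. The floor of 3 counts corresponds to 0.178 to 0.408 CPM (the usual scaling of counts to a common library total), far under every member value, and covers counting error only. CPM are given after scaling by the trimmed mean of M-values (TMM), which removes differences in RNA composition between libraries. Cul4b, the deleted gene, fell to between 0.848 and 2.21 CPM in the KO crypts from 31.7 to 38.3 in WT, to 1.69 and 1.76 in the KO-IEC organoids from 83.2 and 73.2, and to 3.34 and 5.19 in the KO-CAG organoids from 72.9 and 70.1, so that the labels fit the deletion in all 16 libraries. In KO-IEC organoids its call was lost without WT replicate 1 (edgeR adjusted p = 0.451) or WT replicate 2 (edgeR adjusted p = 0.230), where a single WT library was assumed to vary like the KO libraries. The summed epithelial markers (Epcam and others) lay between 4828 and 9214 CPM. The summed immune markers stayed at or under 83.7 CPM in crypts and at or under 0.962 CPM in organoids.

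Levels of different genes can be compared only per length, here as TPM (counts per gene length, relative to all genes of the library). Kmt5a was the most abundant of the 7 in every group, at 87.2 ± 8.90 TPM in WT crypts (SD, n = 4), followed by Gmnn at 74.4 ± 7.30 and Cdt1, the licensing factor itself, at 41.1 ± 9.27. Orc6 stood at 22.9 ± 2.45 TPM, Cdc6 at 9.42 ± 2.02, Dtl at 6.87 ± 1.01 and Orc1 at 5.20 ± 1.57. In WT crypts the ranges of Kmt5a and Gmnn overlapped, as did those of Cdc6 and Dtl and of Dtl and Orc1, whereas Gmnn, Cdt1, Orc6 and Cdc6 were apart from each other. In WT organoids of both experiments the order of the means was the same. The tables give Dtl a length of 13709 bases, which joins all its exons, against 4212 bases in its principal transcript. Read per kilobase of the principal transcript, which was chosen after the data were seen, Dtl moved above Cdc6 in WT crypts (9.53 ± 1.26 against 8.17 ± 1.48 CPM per kilobase) and in the WT libraries of the KO-CAG experiment, and the other 5 members kept their places there.

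In crypts the comparison asked how the loss of CUL4B in the epithelium in vivo bears on these transcripts. None of the 7 members passed the test at an adjusted p under 0.05, while 6.96% of the 13427 tested genes did (2.66% lower in KO). Of these calls 38.2% were lower in KO, and 49.0% where libraries were scaled by size only. The point estimates of all 7 lay below 0, from -0.61 to -0.03 on the log2 scale with a median of -0.27, and 51.1% of all tested genes lay below 0, with a median of -0.01. Groups of no member were apart, whereas 8.79% of all tested genes had every KO library below every WT library. At an unadjusted p under 0.05 the count was 1 of 7, Cdt1, against 31.9% of all genes, and DESeq2 also gave 0 at its adjusted p.

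**Figure D1:**
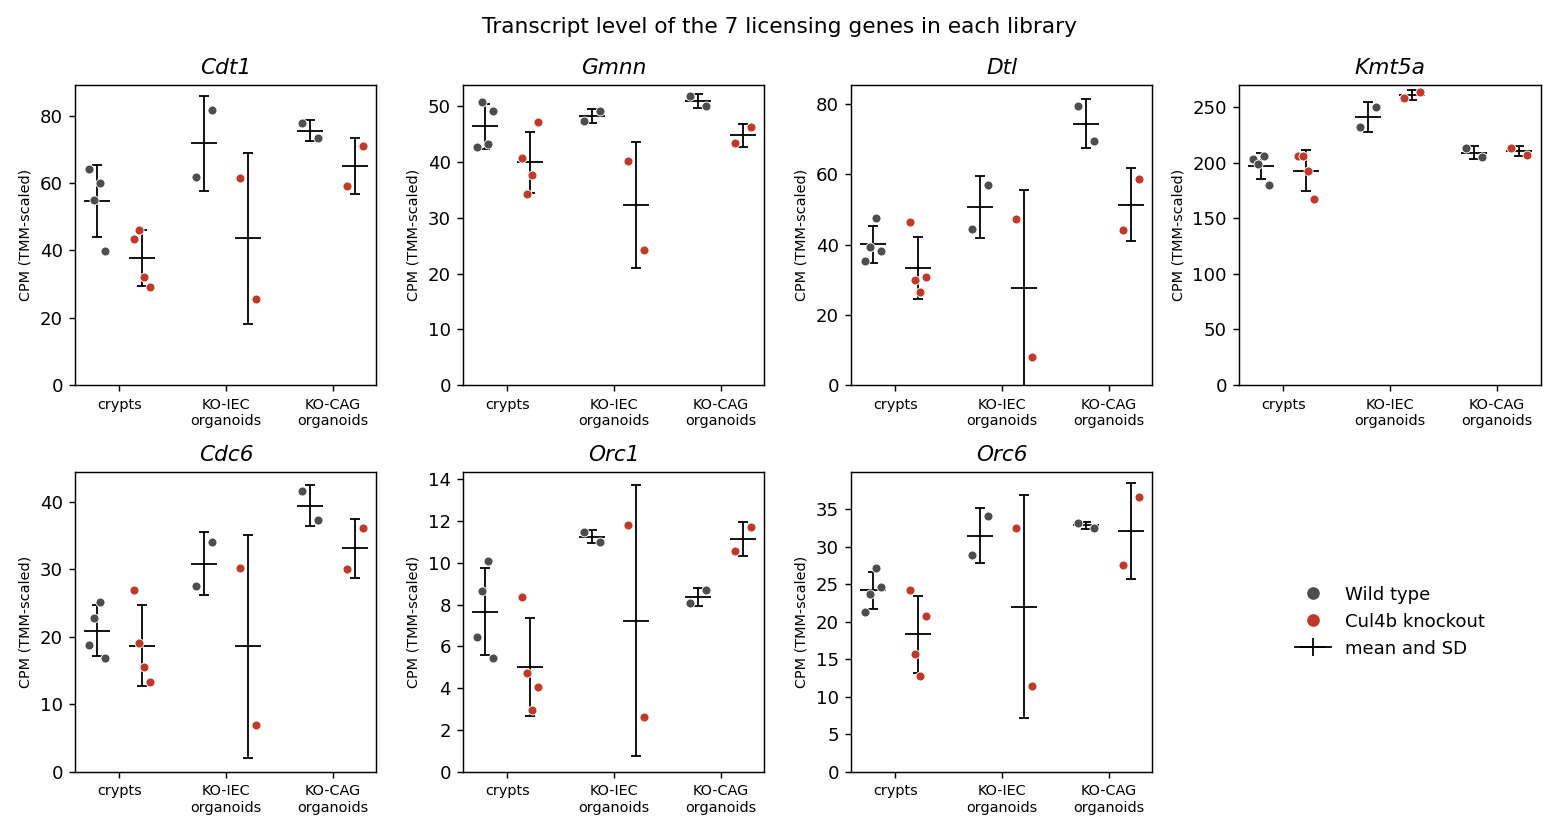
TMM-scaled CPM of each gene (vertical axes, linear from 0) in WT (grey) and Cul4b knockout (red) libraries of the 3 experiments, each point 1 library, with the mean and SD in black (an SD that reaches below 0 is not drawn there). KO and WT crypt libraries overlap for all 7 genes, and 1 of the 2 KO-IEC organoid libraries lies far below the others for 6 of them, Kmt5a being the exception.

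Cdt1 had the lowest p of the 7 in crypts. Its levels were 64.0, 55.0, 60.1 and 39.7 CPM in WT and 43.4, 46.0, 32.1 and 29.1 in KO. The KO libraries were below the first 3 WT libraries, but WT replicate 4 lay among them. The log2 fold change was -0.54 (SE 0.19, 95% interval -0.96 to -0.12), with an adjusted p of 0.0915 in edgeR's quasi-likelihood test and an exact two-sided permutation p of 0.0857, where 0.0286 is the smallest that 4 against 4 allows. Without WT replicate 4 the estimate was -0.65 with an adjusted p of 0.0389 by edgeR. In that fit 1864 genes passed over all, against 934 with every library. DESeq2 gave an adjusted p of 0.0592 for Cdt1 on all libraries.

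Gmnn, the inhibitor of CDT1, held 42.8, 50.7, 43.3 and 49.1 CPM in WT and 40.8, 34.2, 37.8 and 47.2 in KO. Its groups overlapped through KO replicate 4, and the log2 fold change was -0.22 (SE 0.12, edgeR adjusted p = 0.228). The ratio of Cdt1 to Gmnn in TPM, the promoting factor against its inhibitor, ranged from 0.377 to 0.698 in WT crypts and from 0.288 to 0.627 in KO crypts. In log2 units the mean ratio was -0.88 ± 0.40 (SD, n = 4) in WT and -1.20 ± 0.48 in KO, a difference smaller than either SD.

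The loading factors showed a wide spread among the KO crypts. Orc1, the largest subunit of the origin recognition complex and the least abundant member, was at 6.45, 8.67, 10.1 and 5.47 CPM in WT and at 8.35, 4.73, 2.97 and 4.04 in KO. KO replicates 2 to 4 were under the lowest WT value and KO replicate 1 was among the WT values, which gave a log2 fold change of -0.61 (SE 0.33, edgeR adjusted p = 0.224). Orc6, the smallest subunit, had 21.2, 23.7, 27.2 and 24.6 CPM in WT and 24.2, 15.7, 12.7 and 20.8 in KO, with a log2 fold change of -0.40 (SE 0.19, edgeR adjusted p = 0.185). Cdc6, the ATPase that brings CDT1 and the helicase to the origin, had 18.8, 22.8, 25.2 and 16.8 CPM in WT and 27.0, 19.0, 15.5 and 13.2 in KO. Its highest and its lowest library were both KO, and the log2 fold change was -0.16 (SE 0.23, edgeR adjusted p = 0.637).

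Dtl, the substrate receptor, was at 35.3, 39.4, 47.7 and 38.2 CPM in WT crypts and at 46.4, 29.9, 26.4 and 30.7 in KO crypts. KO replicate 1 was again among the WT values and the other 3 KO libraries were below them all, with a log2 fold change of -0.27 (SE 0.18, edgeR adjusted p = 0.321). Kmt5a was at 203, 199, 206 and 180 CPM in WT crypts and at 206, 206, 192 and 167 in KO crypts. Its log2 fold change was -0.03 with a 95% interval of -0.26 to 0.20, so that a change of either sign beyond that range was not seen at this spread.

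KO replicate 1 was the crypt library that most moved the calls. Without it, Dtl (-0.47, adjusted p = 0.0379) and Orc1 (-0.96, adjusted p = 0.0455) passed in edgeR. Calls over all genes rose at the same time, from 934 with every library to 2468. The crypt libraries also differed in mitochondrial ribosomal RNA, from 18.9 to 2873 CPM for the sum of both such genes. WT replicate 1 and KO replicates 1 to 3 were low, WT replicate 4 and KO replicate 4 were in the middle, and WT replicates 2 and 3 were high. Within the low class, which has 1 WT library, the difference of mean log2 CPM was -0.67 for Cdt1, -0.38 for Orc1, -0.33 for Orc6, -0.19 for Gmnn, -0.09 for Dtl, -0.02 for Kmt5a and 0.08 for Cdc6. Within the middle class, 1 library against 1, all 7 were below 0, from -0.44 for Cdt1 to -0.06 for Gmnn. With the class as a covariate no member passed, and Cdt1 stood at -0.58 and Orc1 at -0.34.

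Markers of other states moved beside the members in crypts. The summed mitosis list (18 genes) was 2207 to 2722 CPM in WT and 1441 to 2380 in KO, and the summed enterocyte list (8 genes, the absorptive cells that no longer divide) was 1945 to 8606 in WT and 7357 to 16397 in KO. In bulk libraries, fewer dividing cells and less of a transcript per cell cannot be told apart. With a score of the mitosis list as covariate the estimates of Dtl, Kmt5a, Cdc6 and Orc1 turned to above 0 (0.19, 0.10, 0.44 and 0.33), and with a score of the enterocyte list they were 0.11, 0.12, 0.43 and 0.26. No member passed in either fit, with adjusted p from 0.469 to 0.991 for the first and from 0.592 to 0.883 for the second.

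In KO-IEC organoids, the same deletion carried into culture, none of the 7 passed either. In that experiment 1 of 13938 tested genes, Cul4b itself, passed (0.00717%), and 4.66% of genes were under 0.05 unadjusted, among them no member. Estimates were larger than in crypts for 6 members, from -0.87 for Dtl to -0.51 for Orc6, and 0.11 for Kmt5a, but their intervals were wide (Dtl -2.91 to 1.17, edgeR adjusted p = 0.856). Cdt1 and Gmnn had both KO libraries below both WT libraries and Kmt5a both above, against 19.4% of all tested genes in each direction.

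The width came from the KO libraries, which differed by up to several fold. Dtl was at 44.5 and 56.9 CPM in WT, 47.3 in KO replicate 1 and 7.97 in KO replicate 2. Cdc6 was at 27.5 and 34.1 in WT against 30.2 and 6.89 in KO, and Orc1 at 11.5 and 11.02 against 11.8 and 2.63. For these 3 genes KO replicate 1 lay within or just above the WT values, and KO replicate 2 stood alone.

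Cdt1 was at 61.8 and 81.6 CPM in WT, and at 61.5 and 25.7 in KO. Orc6 was at 28.8 and 34.0 in WT and at 32.5 and 11.5 in KO, and Gmnn at 47.4 and 49.1 against 40.2 and 24.2. Kmt5a, at 232 and 250 CPM in WT, was at 258 and 264 in KO, and was the only member that KO replicate 2 did not have at its lowest level.

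As a share of the WT mean, KO replicate 2 kept 15.7% of Dtl, 22.3% of Cdc6, 23.4% of Orc1, 35.8% of Cdt1, 36.5% of Orc6, 50.2% of Gmnn and 109% of Kmt5a. KO replicate 1 kept 83.4% to 107%. In all, 5 of the 7 members were under 50% of the WT mean in KO replicate 2, where 10.4% of all tested genes were, and none in KO replicate 1, where 5.81% were. In the same library Pcna, the clamp on which CRL4-Cdt2 meets its substrates, kept 49.3% and Mki67, a marker of cycling cells, 56.1%.

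**Figure D2:**
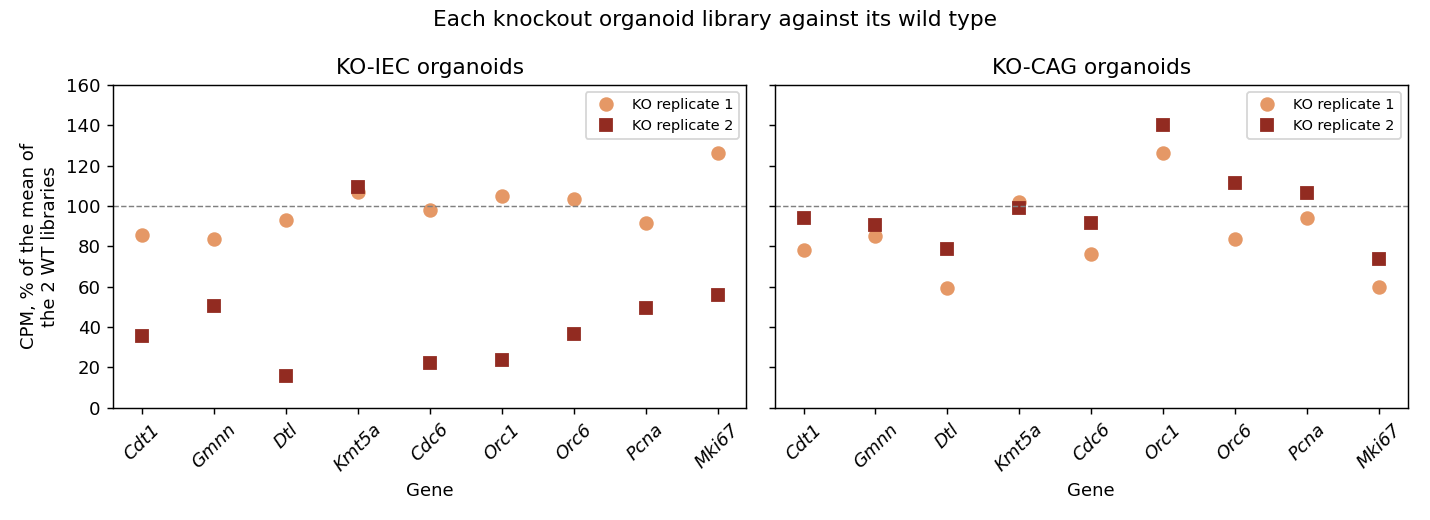
Level of each gene in each knockout organoid library as a percentage of the mean of the 2 WT libraries of its experiment (vertical axis, the dashed line marks 100%), for the 7 members, Pcna and Mki67. KO-IEC replicate 2 (dark squares, left) falls to between 15.7% and 50.2% for 6 members and stays at 109% for Kmt5a, while KO-CAG libraries (right) lie between 59.2% for Dtl and 140% for Orc1.

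The same library stood apart in whole lists. The summed MCM list was 299 CPM in KO replicate 2 and between 1002 and 1063 in the other 3 libraries, and the mitosis list 959 against 2243 to 2585. The stem cell list was 556 CPM there, 2110 in KO replicate 1 and 3160 and 4513 in WT, and the goblet cell list was 6715 against 1659 to 1955. The part of these cell type shifts in the members' levels was not tested. When KO replicate 1 was left out, KO replicate 2 alone faced WT, so that no spread between KO libraries could be measured. The estimates of the 6 members other than Kmt5a were then between -2.67 for Dtl and -0.996 for Gmnn, and that of Kmt5a was 0.13. When KO replicate 2 was left out, the estimates of the members were between -0.26 and 0.10.

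In KO-CAG organoids, where the gene is lost after tamoxifen, 1 of the 7 members passed and 31.5% of the 13598 tested genes did (13.4% lower in KO). That member was Dtl, which was at 79.4 and 69.6 CPM in WT and at 44.1 and 58.8 in KO. Both KO libraries were below both WT libraries, and the log2 fold change was -0.52 (SE 0.13, 95% interval -0.82 to -0.23, edgeR adjusted p = 0.0134), which means that Dtl fell by 30.4%. DESeq2 gave an adjusted p of 0.0155. The change is smaller than 2-fold, and in a fit of all 16 libraries, which share 1 estimate of the spread, the adjusted p was 0.601.

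The other members did not pass in KO-CAG organoids. Cdt1 was at 77.7 and 73.3 CPM in WT and at 59.2 and 71.0 in KO, with a log2 fold change of -0.21 (SE 0.10, edgeR adjusted p = 0.153). Gmnn was at 51.9 and 50.1 in WT and at 43.4 and 46.3 in KO, a log2 fold change of -0.18 (SE 0.10, edgeR adjusted p = 0.178), and Cdc6 at 41.6 and 37.3 against 30.0 and 36.2, a log2 fold change of -0.25 (SE 0.13, edgeR adjusted p = 0.164). For these 3, as for Dtl, the KO libraries were below the WT libraries, so that 4 of 7 members were apart in that direction, against 34.2% of all tested genes.

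Orc1 went the other way in KO-CAG organoids. Its levels were 8.07 and 8.68 CPM in WT and 10.6 and 11.7 in KO, so that both KO libraries were above WT, as in 35.5% of all tested genes. The log2 fold change was 0.42 (SE 0.19, 95% interval -0.01 to 0.85, edgeR adjusted p = 0.125). Orc6 was at 33.1 and 32.5 in WT, and its KO libraries, at 27.5 and 36.5, lay on either side of them, with a log2 fold change of -0.02. Kmt5a was at 213 and 205 CPM in WT and at 214 and 207 in KO, and the 95% interval of its log2 fold change, -0.17 to 0.19, is the narrowest of the 21 (7 genes in 3 experiments). The Cdt1 to Gmnn ratio was 0.698 and 0.682 in WT and 0.637 and 0.716 in KO. Without KO replicate 2 the estimates were -0.35 for Cdt1, -0.40 for Cdc6 and -0.76 for Dtl, where a single KO library faced WT.

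**Figure D3:**
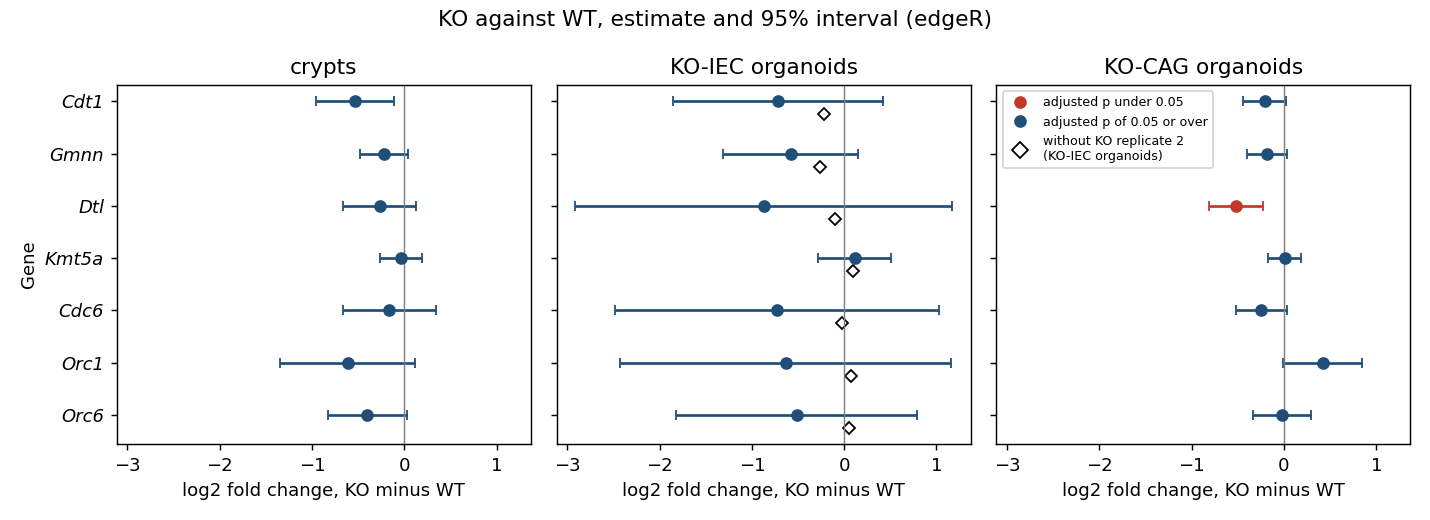
Log2 fold change of KO against WT for the 7 genes with its 95% interval (horizontal axis) in crypts, KO-IEC organoids and KO-CAG organoids, red where the edgeR adjusted p is under 0.05; open diamonds give the KO-IEC estimate without KO replicate 2. Dtl in KO-CAG organoids is the only red point, and the wide intervals of the KO-IEC panel shrink to estimates between -0.26 and 0.10 without that library.

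Whether the effect of the deletion differed between experiments was tested as an interaction in 1 fit of all 16 libraries. None of the 21 member contrasts passed, and 0.372% of 15585 genes did for KO-CAG organoids against crypts, 0.00642% for KO-IEC organoids against crypts and 0.385% for the organoid experiments against each other. The largest difference was that of Orc1, which was higher by 1.04 (SE 0.75, edgeR adjusted p = 0.666) in KO-CAG than in KO-IEC organoids and by 1.01 (SE 0.66, edgeR adjusted p = 0.528) than in crypts. The smallest SEs were those of Kmt5a, whose effect differed from that in crypts by 0.15 (SE 0.15) in KO-IEC organoids and by 0.03 (SE 0.15) in KO-CAG organoids. Without KO-IEC replicate 1 in the fit, 5 contrasts passed, each involving KO-IEC organoids.

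After the mean of each experiment was removed from log2 CPM, Pearson's r over 16 libraries was between 0.66 and 0.96 for the 15 pairs without Kmt5a, and between -0.48 and 0.25 for the 6 pairs with it. The libraries share genotype and preparation, and KO-IEC replicate 2 weighs heavily in these values. Without it, r of the 15 pairs was between 0.09 and 0.82, and that of the Kmt5a pairs between -0.48 and 0.71. With Mki67, r was 0.86 for Cdc6, 0.84 for Dtl, 0.73 for Orc6, 0.72 for Cdt1, 0.71 for Orc1, 0.56 for Gmnn and 0.22 for Kmt5a. Those of Cdc6 and Dtl were 0.84 and 0.82 without that library, those of Cdt1, Orc6, Kmt5a and Orc1 were 0.51, 0.51, 0.50 and 0.47, and that of Gmnn was 0.14, so that the low value of Kmt5a over all libraries rests on that library.

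The genes most alike over the same 16 libraries, out of 12478, were Chek1 (r = 0.99), the S phase checkpoint kinase, Fignl1 and Fancd2 for Dtl, and Uhrf1 (r = 0.98), Mcm2 and Nsd2 for Cdc6. For Orc6 they were Rsl1d1, Pbk and Tipin, and for Orc1 Setd6, Nudcd2 and Wdr46, with r from 0.97 to 0.98. Cdt1 was most like Clca3b, Nt5dc2 and Rcc2 (each r = 0.96), and Gmnn was most like Hopx (r = 0.95), Anapc15 and Snhg17 (each r = 0.94). Kmt5a was most like Slc39a7 (r = 0.94), Brd3 and Zfhx3 (r = 0.88 and 0.87).

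Among the core subunits of the ligase and Pcna, only Cul4b passed in crypts and KO-IEC organoids, and Dda1 joined it in KO-CAG organoids. The receptor Dtl passed there too. Cul4a, the paralogous scaffold, was 88.2 ± 4.18 CPM in WT and 89.0 ± 5.69 in KO crypts (SD, n = 4), 108 ± 4.41 and 111 ± 1.502 in KO-IEC organoids (n = 2) and 119 ± 4.12 and 113 ± 1.24 in KO-CAG organoids (n = 2), and passed in none. Ddb1 and Rbx1 did not pass either, with log2 fold changes between -0.22 and 0.04. Dda1, a small subunit bound to DDB1, rose in KO-CAG organoids, from 49.99 and 51.3 CPM to 72.7 and 66.6 (log2 fold change 0.46, SE 0.09, edgeR adjusted p = 0.00481, or 0.0551 in the fit of all 16 libraries), and stood at -0.01 in crypts and 0.02 in KO-IEC organoids. Pcna did not pass in any experiment (-0.09, -0.50 and 0.00).

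Of the 5 other known substrates of CRL4-Cdt2, 2 rose in KO-CAG organoids, where 18.1% of all tested genes rose, and none passed elsewhere. Cdkn1a, which encodes the CDK inhibitor p21, was at 113 and 126 CPM in WT and at 386 and 321 in KO there, a log2 fold change of 1.57 (SE 0.11, edgeR adjusted p = 1.1e-05, or 0.0698 in the fit of all 16 libraries). In crypts it ran from 46.5 to 110 CPM in WT and from 99.2 to 219 in KO, a log2 fold change of 0.98 (SE 0.31, edgeR adjusted p = 0.0712, DESeq2 adjusted p = 0.0131), with overlapping groups. In KO-IEC organoids it was at 185 and 213 CPM in WT, at 141 in KO replicate 1 and at 306 in KO replicate 2, the library in which 6 members were lowest.

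Ercc5, which encodes the repair nuclease XPG, was at 20.1 and 23.3 CPM in WT and at 44.2 and 40.4 in KO-CAG organoids (log2 fold change 0.96, SE 0.13, edgeR adjusted p = 0.000410), and stood at 0.01 in crypts. In KO-IEC organoids it was at 20.3 and 18.7 CPM in WT and at 24.4 and 27.1 in KO, and did not pass. Tdg, a DNA glycosylase, and Fbh1, a DNA helicase listed under its older symbol Fbxo18, had log2 fold changes between -0.19 and 0.17 and passed in none. Pold4, the small subunit of DNA polymerase delta, was uneven in crypts. It was at 5.47 CPM in WT replicate 4, at 11.5 in KO replicate 2 and at 0.424 to 0.846 in the others. It did not pass the low-count filter there. In organoids it was at 16.1 to 26.2 CPM and was not called.

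Among the factors that act with the members at origins, the calls were few. Of the other 4 subunits of the origin recognition complex and its partner Lrwd1, Orc3 (-0.42, adjusted p = 0.0123) and Orc5 (-0.44, adjusted p = 0.0286) fell in KO-CAG organoids by edgeR, where 13.4% of all tested genes fell, and none of the 5 passed elsewhere. DESeq2 ended both calls (Orc3 adjusted p = 0.0875, Orc5 adjusted p = 0.137). Of the MCM2-7 helicase and Mcmbp, 1 of 7 fell there (Mcm6, -0.43, adjusted p = 0.00951) and 0 of 7 passed in crypts or KO-IEC organoids. The medians of that list were -0.43, -0.74 and -0.19 in crypts, KO-IEC and KO-CAG organoids, beside -0.01, -0.01 and 0.00 over all tested genes. In KO-IEC organoids the summed list was 1002 CPM in KO replicate 1 and 299 in KO replicate 2, against 1012 and 1063 in WT.

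Of 13 origin firing factors, 3 fell in crypts, where 2.66% of all tested genes fell, and all 3 encode subunits of GINS, the complex that joins MCM2-7 and CDC45 in the active helicase. Gins2 went from 22.3 ± 1.40 to 12.9 ± 3.37 CPM (SD, n = 4, log2 fold change -0.79, edgeR adjusted p = 0.0460), Gins1 from 19.3 ± 1.22 to 11.6 ± 2.14 (-0.73, adjusted p = 0.0413) and Gins4 from 30.0 ± 3.32 to 21.9 ± 0.626 (-0.46, adjusted p = 0.0455). KO and WT libraries were apart for each, and 8.79% of all tested genes had every KO library below every WT library. These calls rest on most of the libraries: without WT replicate 1, 2 or 3 or KO replicate 2 or 3 each of the 3 lost its call, and for Gins2 and Gins4 also without KO replicate 4, with estimates that stayed between -0.91 and -0.39. In KO-CAG organoids 1 of the 13 fell, against 13.4% of all tested genes. It was Ticrr (-0.41, edgeR adjusted p = 0.0485, DESeq2 adjusted p = 0.151), whose protein carries CDC45 to the helicase. In KO-IEC organoids none passed though all 13 estimates were below 0. The summed list was 519 CPM in KO replicate 1 and 192 in KO replicate 2 there, against 503 and 487 in WT.

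Of the other ligases that act on licensing factors, 1 of 8 tested fell in crypts, against 2.66% of all tested genes. In KO-CAG organoids 1 of 9 fell, against 13.4% of all tested genes, and none passed in KO-IEC organoids. Fbxo31, an F-box protein known to target CDT1, fell in crypts (-0.53, edgeR adjusted p = 0.0455), and Huwe1, which targets CDC6, fell in KO-CAG organoids (-0.32, edgeR adjusted p = 0.0160). Skp2, the F-box protein of the second ligase that destroys CDT1, is listed at 0 in all 8 crypt libraries, although it had 196 to 695 counts in each organoid library, and is among 21 genes at 0 in every crypt library among the 8529 with at least 100 counts in every organoid library. It did not pass in organoids (-0.45 and -0.29). Of the other enzymes and readers of H4K20 methylation 3 were tested and none passed, with Kmt5b, which adds further methyl groups to the mark that SET8 sets, at 0.26 in crypts (edgeR adjusted p = 0.0717).

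**Figure D4:**
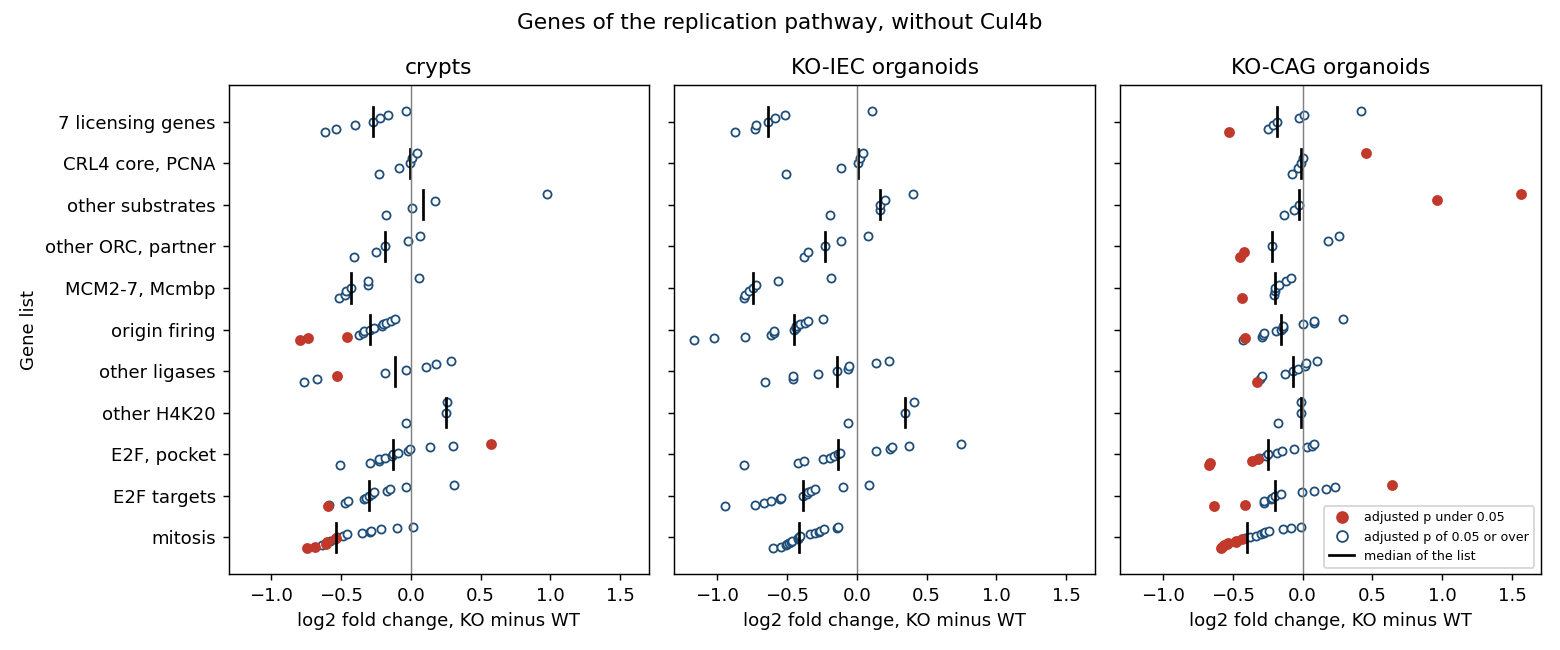
Log2 fold change of KO against WT (horizontal axis) of every tested gene of the 7 members and of 10 further lists, leaving out Cul4b, with filled red points at an edgeR adjusted p under 0.05, open points otherwise and a black bar at the median of each list. Medians lie below 0 in all 3 panels for the members, other ORC, MCM, origin firing, other ligases, E2F and pocket genes, E2F targets and mitosis. The points furthest to the right in KO-CAG organoids are Cdkn1a at 1.57 and Ercc5 at 0.96. In KO-IEC organoids KO replicate 1 was above WT in summed origin firing (519 against 503 and 487 CPM) and mitosis (2585 against 2360 and 2243). It was just under WT in MCM (1002 against 1012 and 1063). KO replicate 2 was at 192, 959 and 299 CPM.

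Of 13 E2F and pocket protein genes, 4 fell in KO-CAG organoids, against 13.4% of all tested genes. These were Tfdp2 (-0.67, edgeR adjusted p = 0.000357), E2f8 (-0.66, adjusted p = 0.00224), Rbl1 (-0.32, adjusted p = 0.0218) and, outside the rule for named genes, E2f2 (-0.36, adjusted p = 0.0304). DESeq2 ended the calls of Rbl1 (adjusted p = 0.124) and E2f2 (adjusted p = 0.183). In crypts 1 of the 13, Rb1, rose (0.57, edgeR adjusted p = 0.0494), against 4.3% of all tested genes, and it missed the threshold with DESeq2 size factors (edgeR adjusted p = 0.0509) and with library size only (edgeR adjusted p = 0.0528). Of 13 E2F targets of the G1/S switch, 1 fell in crypts, against 2.66% of all tested genes. It was Tk1, a thymidine kinase (-0.59, edgeR adjusted p = 0.0425). In KO-CAG organoids 2 fell, against 13.4% of all tested genes, and 1 rose, against 18.1%. Tk1 (-0.63, edgeR adjusted p = 0.00149) and Ccna2 (-0.41, edgeR adjusted p = 0.0294) fell there. Ccne1, cyclin E1, rose (0.64, edgeR adjusted p = 0.0295, DESeq2 adjusted p = 0.127). The medians of that list were -0.30, -0.38 and -0.20 in crypts, KO-IEC and KO-CAG organoids, beside -0.27, -0.63 and -0.18 for the members. In KO-IEC organoids the summed E2F targets were 1188 CPM in KO replicate 1 and 380 in KO replicate 2, against 1086 and 1102 in WT.

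The crypt calls of Fbxo31, Rb1, Tk1 and the mitosis genes were lost, as those of the GINS genes were, without any of WT replicates 1 to 3 or KO replicates 2 and 3. Without KO replicate 4, Fbxo31 (edgeR adjusted p = 0.0583), Rb1, Plk1, Cdc20 and Ube2c lost theirs too. All of them were lost with the replicate block and with each of the 3 crypt covariates. Over all genes 934 calls became 4 with the block, 2 with the class, 1 with the mitosis score and 1 with the enterocyte score, so that the loss is not particular to these genes. The mitosis genes make up the mitosis score, so their loss under that score follows largely from its construction. In KO-CAG organoids the calls of Orc5 (adjusted p = 0.274), E2f2, Rbl1, Huwe1, Ticrr and Ccne1 were lost without WT replicate 1. Those of Orc3 (adjusted p = 0.0804), Ccna2, E2f2, Rbl1, Huwe1 and Ticrr were lost without WT replicate 2, that of Ticrr also without KO replicate 1 and that of Ccne1 without KO replicate 2, by edgeR in each case, with the lone library of a group assumed to vary like the other group. In the fit of all 16 libraries 22 of the 25 KO-CAG calls among the members and these lists were lost, and Cul4b, Ercc5 and Tfdp2 kept theirs. Cdkn1a in crypts passed without WT replicate 4 (1.25, adjusted p = 0.0344) or KO replicate 1 (1.13, adjusted p = 0.0395) by edgeR. Calls over all genes were 1864 and 2468 in these fits.

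Of 18 mitosis genes, 5 fell in crypts, where 2.66% of all tested genes fell, and 8 in KO-CAG organoids, where 13.4% fell, and none passed in KO-IEC organoids. In crypts these were Ccnb2 (-0.60, edgeR adjusted p = 0.0423), Cdc20 and Birc5, and, outside the rule for named genes, Ube2c and Plk1. In KO-CAG organoids the lowest p were those of Cenpf (-0.59, edgeR adjusted p = 0.00183), Mki67 and Ccnb2. Mki67 was at 503 and 457 CPM in WT and at 287 and 354 in KO there (-0.58, edgeR adjusted p = 0.00355), and had log2 fold changes of -0.10 in crypts and -0.13 in KO-IEC organoids, where KO replicate 1 was above WT.

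Beside these, markers of cell types moved in KO-CAG organoids, where 7 of 8 enterocyte genes and all 5 goblet, 5 Paneth and 5 enteroendocrine genes rose, against 18.1% of all tested genes, and 3 of 5 stem cell genes fell (Lgr5, Slc12a2 and Smoc2), against 13.4%. The summed enterocyte list was 4004 and 4401 CPM in WT and 11707 and 9309 in KO. The summed stem cell list was 4172 and 4799 CPM in WT and 3297 and 3806 in KO. In crypts Lgr5 and Ascl2 fell among the 5 stem cell genes, against 2.66% of all tested genes, and no enterocyte, goblet, Paneth or enteroendocrine gene passed. The estimates of all 8 enterocyte genes were nevertheless above 0 there, from 1.00 to 2.26 with a median of 1.57, beside -0.01 over all tested genes. The part of the change of cell types in KO-CAG organoids in the fall of Dtl there was not tested. The lists were written with earlier results of these data known, so that their counts are descriptions.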

How the data were processed

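The authors deposited counts of reads per gene for each experiment, without normalization, made per the labels with HISAT2 2.0.5 and featureCounts 1.5.0-p3. Genome build, annotation and strand use are not given in the sources used here. A gene length column comes with the tables. No column was left unmapped, and no library was left out. For each experiment a separate model compared KO with WT. After filterByExpr and TMM scaling, edgeR 4.0.16 (R 4.3.3) supplied quasi-likelihood F tests, and p-values were adjusted by Benjamini and Hochberg's method across every tested gene. A gene passed at an adjusted p under 0.05. An SE is the absolute log2 fold change over the root of its F value. Interactions used all 16 libraries. Log2 CPM for correlations carried a prior count of 2. Alternatives were DESeq2 1.42.0 (its test and its size factors), library size only, other low-count filters, a 2-fold limit, the replicate number as a block, 1 fit of all libraries, leaving out each library, and covariates in crypts. Named were all members, the ligase subunits and other substrates, up to 3 genes of lowest adjusted p per list and experiment, Mki67, and the 3 most alike genes per member. Members and lists were chosen with earlier results of these data known. Reads of Orc6 with Vps35 and of Orc1 with Gm12743, whose positions overlap on the opposite strand, cannot be told apart if counting ignored strand. Protein sequences were not used here.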

Additional observations from a re-analysis of the deposited data

How the results depend on the processing

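Of the 7 licensing genes, the count that passed stayed at 0 in crypts and in KO-IEC organoids, and at 1 in KO-CAG organoids, under other scalings, low-count filters, DESeq2, the replicate block and the crypt covariates. It went to 0 in KO-CAG organoids with the 2-fold limit, by its construction, and to 0 in 1 fit of all 16 libraries. Leaving out 1 library gave 0 to 2 in crypts, 0 to 6 in KO-IEC organoids and 1 to 3 in KO-CAG organoids. The interaction gave 0 of 21 under library size only, DESeq2 and the stricter filter, and 0 to 5 without 1 library.

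Over all genes in crypts, 934 calls became 1479 with no low-count filter, 2287 with DESeq2, 240 with the 2-fold limit, 1659 with all 16 libraries, 4 with the replicate block, 2 with the class of mitochondrial ribosomal RNA, 1 with the mitosis score and 1 with the enterocyte score, and 2 to 2468 without 1 library. In KO-IEC organoids 1 became 223 with no filter, 26 with DESeq2, 18 with all 16 libraries and 0 to 2322 without 1 library. In KO-CAG organoids 4278 became 2530 with DESeq2, 1169 with the 2-fold limit, 477 with all 16 libraries and 2789 to 5177 without 1 library. Over the genes of the pathway lists, Cul4b among them, 12 calls of 90 in crypts became 22 with no filter, 22 with DESeq2, 5 with all 16 libraries, 1 with the 2-fold limit, 1 with the replicate block, 1 with the class, 1 with the mitosis score and 1 with the enterocyte score, and 1 to 37 without 1 library. In KO-IEC organoids 1 became 0 to 63 without 1 library. In KO-CAG organoids 24 of 92 became 18 with DESeq2, 2 with the 2-fold limit, 3 with all 16 libraries and 18 to 51 without 1 library. The cause of these shifts was not tested.

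Signs turned as follows. In crypts, with the mitosis score and the enterocyte score, Dtl went to 0.19 and 0.11, Kmt5a to 0.10 and 0.12, Cdc6 to 0.44 and 0.43, Orc1 to 0.33 and 0.26, Pcna to 0.20 and 0.16 and Mki67 to 0.44 and 0.33, and with the class Pcna went to 0.0074 and Mki67 to 0.017. Mki67 is itself a gene of the mitosis list, so its value under the mitosis score is not independent of that score. In KO-CAG organoids Kmt5a went to -0.022 with library size only and -9.01e-05 with DESeq2, and Pcna to -0.0030 with DESeq2 size factors, -0.027 with library size only, -0.0023 with the stricter filter, -0.0058 with DESeq2, -0.00041 with the replicate block and -0.0051 with all 16 libraries. Without 1 library, Kmt5a ran from -0.063 to 0.042 and Mki67 from -0.28 to 0.0082 in crypts. In KO-IEC organoids Orc1 ran from -2.09 to 0.073, Orc6 from -1.46 to 0.049, Cdkn1a from -0.50 to 0.61 and Mki67 from -0.84 to 0.34. In KO-CAG organoids Kmt5a ran from -0.032 to 0.027, Orc6 from -0.26 to 0.14 and Pcna from -0.10 to 0.072. No member or named gene that passed turned its sign.

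WT and KO libraries share replicate numbers, but whether the numbers mark pairs is not given in the sources used here. In crypts the correlations of same-numbered libraries' deviations were -0.04, 0.19, -0.40 and 0.43, and not every library was most like its own number. With 2 pairs, r was 0.34 in KO-IEC and 0.07 in KO-CAG organoids. Correlations over so few libraries cannot decide whether they are paired. Under the replicate block 0, 0 and 1 members passed.

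Of the 42 places in the order of levels (7 genes in 6 groups), 8 changed with the principal transcript's length and 0 with CPM per kilobase. All 21 most alike genes remained with a prior count of 0.5, and the E2F-like match stood in 3 members in place of 4 in the narrower window.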

Other observations

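No library of the crypt groups stood apart in a member's level, in the Cdt1 to Gmnn ratio, or in Cul4b, Mki67, Pcna or Cdkn1a by Dixon's criterion for 4 values, in any of 24 groups examined. The nearest was Dtl in the KO crypts, where KO replicate 1 was separated from the next library by 0.785 of the group's range.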
